A study of Saccharomyces cerevisiae with 46 samples.

Results

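The transcripts of 52 RNA decay and surveillance factors of *Saccharomyces cerevisiae* were followed after loss of Spt4 or Spt5. The set was chosen by function from gene identifiers: *XRN1* with decapping and *LSM1* to *LSM7* (15 genes), CCR4-NOT (9), PAN (2), SKI (4), the exosome (11), NMD (3), *RAT1* (1), TRAMP (4) and Nrd1-Nab3-Sen1 (3). RNA-seq values were listed for 49 of the 52 genes in the WT and *spt4Δ* table of 5572 genes and for 47 in each anchor-away table of 4835 genes. *DCP1*, *CDC39* and *SEN1* are not analysed here, nor are *LSM5* and *SKI2* in the anchor-away cells. All listed members averaged 10 or more normalized counts over their table, the minimum for a test. The comparisons ask whether the mRNAs of the decay machinery changed when Spt4 or Spt5 was lost. The level of such an mRNA is not a measure of decay.

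Spt4 and Spt5 form a heterodimer that travels with RNA polymerase II (RNAPII). WT cells were BY4741 carrying *RPB3-3xFLAG*, and *spt4Δ* cells carried the same tag and lacked *SPT4*. Both were untreated and had 2 libraries each. In the anchor-away (AA) system rapamycin draws an FRB-tagged protein out of the nucleus through an FKBP12-tagged ribosomal protein. These cells were BY4741 *tor1-1*, *fpr1Δ*, *RPL13-2xFKBP12*, *RPB3-3xFLAG*, with either *SPT4-FRB-eGFP* or *SPT5-FRB-eGFP*. The controls therefore carried the tag, the *tor1-1* allele and the *FPR1* deletion too. The control group, DMSO, held 1 library of each tagged strain, harvested 120 min after DMSO was added. Spt4-AA had 2 libraries at 140 min of rapamycin (1 mg/ml final in DMSO, as the labels state it) and Spt5-AA had 2 at 180 min. The same DMSO libraries served both anchor-away comparisons, and depletion, rapamycin and harvest time changed together, so their parts cannot be told apart. In each of these comparisons 1 DMSO library was of the other tagged strain. The spread between the DMSO libraries therefore also holds any difference between the strains. All cells grew in YPD at 30°C. Total RNA was depleted of rRNA after *Schizosaccharomyces pombe* cells had been added. Nothing in the labels says whether the replicates were separate cultures, so p-values measure the spread between these libraries only.

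An mRNA in yeast is usually degraded from its ends. CCR4-NOT and PAN shorten the poly(A) tail, the LSM1 to LSM7 ring and Pat1 bind the shortened tail, Dcp1 and Dcp2 remove the cap, and Xrn1 digests the body from the 5′ end. The exosome digests from the 3′ end, with the SKI complex in the cytoplasm and TRAMP in the nucleus. NMD removes messages with early stop codons, Rat1 digests RNA still attached to RNAPII, and Nrd1, Nab3 and Sen1 end transcription of short and unstable RNAs and hand them to the nuclear exosome.

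Between 798455 and 6814227 reads per library fell on listed genes, with the fewest in the Spt5-AA libraries. In those, the median member had 62 and 102 reads, against 640 and 280 in WT. *SPT4* had 531 and 250 reads in WT, 0 in *spt4Δ* replicate 1, where up to 3 reads would still be possible, and 4 in replicate 2. In the anchor-away strains *SPT4* is tagged and not deleted, so its reads check nothing there. *spt4Δ* replicate 1 stood apart in the deposited scaling, at 2.16 times the geometric mean of its table, while the other 3 libraries lay between 0.75 and 0.835. The deposited values put the median gene 0.83 (log2) higher in *spt4Δ* than in WT, 0.28 lower in Spt4-AA than in DMSO and 1.84 lower in Spt5-AA than in DMSO. Changes below are therefore relative to the median gene: each library was divided by its median ratio to the geometric mean of its table, and the result is called a rescaled count. Log2 fold changes are on the scale of log2(rescaled count + 1), which understates low genes. A gene was called to rise or fall at an adjusted p under 0.05 in limma with Benjamini-Hochberg adjustment over all genes tested.

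In WT cells the members spanned a 201-fold range of level. Levels were compared between genes as deposited normalized counts per kb of coding length. *LSM5* (YER146W, chromosome V, 462585 to 462866, R64), a subunit of the LSM ring, was highest with 4673 and 5297 per kb in the 2 WT libraries. It overlaps an annotated gene on the opposite strand, and whether the counting used strand is not given in the sources used here. *LSM6* followed with 4236 and 5206 per kb, and the pair did not differ beyond its spread. *MOT2* (YER068W, chromosome V, 293050 to 294813), the ubiquitin ligase of CCR4-NOT also known as Not4, was lowest with 23.4 and 26.1 per kb. The median member had 233 per kb, against 168 per kb for all genes with a coding length, and 30 of 49 members lay above the latter.

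Subunits of the same complex also differed widely in level. The 11 exosome subunits ran from 46.8 per kb for *SKI6* to 1083 per kb for *CSL4*, a 23.1-fold range. In CCR4-NOT the range was 43.0-fold and in TRAMP 13.99-fold, from *AIR2* at 61.4 ± 12.2 to *MTR4* at 859 ± 71.4 per kb (SD, n = 2). *NRD1* had 38.0 ± 2.75 per kb and its partner *NAB3* 235 ± 1.43 (SD, n = 2). *DIS3*, the catalytic subunit of the exosome, had 147 ± 18.4 per kb (SD, n = 2) and overlapped its neighbour in the order, *PAN2*, with 143 ± 8.39. *XRN1* at 536 ± 21.8 per kb (SD, n = 2) stood above the median gene and *CCR4* at 64.8 ± 18.1 below it.

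**Figure D1:**
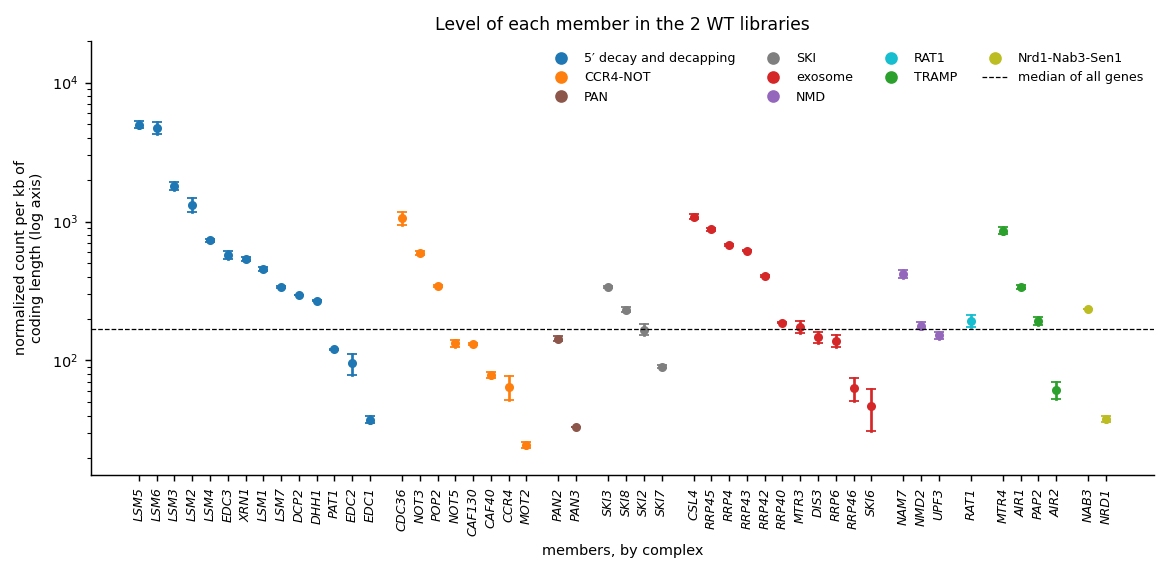
Level of the 49 listed members in WT cells, in deposited normalized counts per kb of coding length (log axis), grouped by complex. Points are means of 2 libraries, bars join the 2 values, and the dashed line is the median of all genes, 168 per kb, with *LSM5* highest and *MOT2* lowest.

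The promoters were read because genes of ribosome and rRNA synthesis in yeast share the PAC (GATGAG) and RRPE (AAAATTT) motifs, and the exosome and TRAMP process rRNA precursors. The window ran from 250 to 50 bases before the start codon in the R64 assembly, 201 bases long, and both strands were searched. PAC was found before 5 of 11 exosome genes and 2 of 4 TRAMP genes, against 15.7% of all 6001 protein-coding genes and 11 of all 52 members (21.2%). RRPE was found before 8 of 11 exosome genes, against 19.4% of all genes and 32.7% of members. None of the 3 NMD genes and none of the 3 Nrd1-Nab3-Sen1 genes held PAC. The stress-response letters AGGGG were present before 7 members (13.5%) and 15.7% of all genes. A match is a description of letters and not a binding site.

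The exosome and TRAMP matches to PAC are shown because most genes of these complexes fell after Spt5 depletion, with *RAT1* as the member that held PAC and rose. The display was thus picked by outcome and shows no link of PAC to the falls. *MTR3*, shown here, was not called. *CCR4* and *DHH1* held PAC too and were not called, and *SKI2* held it without a value there. Of the 19 members that fell, 6 held PAC. Capitals mark the motif, as GATGAG or its reverse complement CTCATC, and each stretch is printed 5′ to 3′ on the strand of its gene, with up to 12 bases on either side inside the window.
RRP4 (chrVIII:234760-234789, minus strand): tatggattgagcGATGAGgtgaaaaaaaaa
RRP43 (chrIII:193068-193089, minus strand): gacaaattagacGATGAGtatt
CSL4 (chrXIV:214810-214839, plus strand): gaattcactgatGATGAGcttatggtacgg
DIS3 (chrXV:285530-285559, minus strand): taggcattttctCTCATCtcagaaaaattt
MTR3 (chrVII:806200-806229, minus strand): tttttttttcacGATGAGatgagatcgcta
MTR4 (chrX:342371-342400, plus strand): tcactttcttgcGATGAGatgcacatagta
AIR1 (chrIX:212058-212087, minus strand): aattagcgatgcGATGAGtgggaaaggtcc
RAT1 (chrXV:421823-421852, minus strand): ttaccttactttCTCATCaggttgtatatt
The first base of the motif lay 119 bases before the start codon in *RRP4*, 59 in *RRP43*, 101 in *CSL4*, 121 in *DIS3*, 139 in *MTR4* and 70 in *AIR1*. In *MTR3* a second match overlaps the first, starting 191 bases before the start codon against 196. *RAT1* held a second match 94 bases before its start codon, with the shown one at 190.

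In *spt4Δ* cells no decay factor was called. Of 5283 genes tested, 54 were called (1.02%), 35 higher (0.663%) and 19 lower (0.36%), and none of the 49 members was among them. edgeR and DESeq2 called no member either. At an unadjusted p under 0.05, no member passed by limma, edgeR or DESeq2, while 563 of all genes (10.7%) passed by limma. The members' log2 fold changes lay between -0.51 and 0.43 with a median of -0.13, against 0.00 for all genes, and 37 of 49 were below 0. Of all 5283 genes tested, 2668 were below 0. Standard errors of single members ran from 0.213 to 0.425.

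The 2 *spt4Δ* libraries did not move the members alike. Across the 49 members, the change of replicate 1 and that of replicate 2 over the same WT libraries had Spearman's rho = -0.31 and Pearson's r = -0.23, a description over genes that share these libraries. *XRN1* (YGL173C, chromosome VII, 175527 to 180113), the cytoplasmic 5′ exonuclease, had 3372 and 3184 rescaled counts in WT and 2231 and 3150 in *spt4Δ*. Both *spt4Δ* values were below both WT values, but the second was near them, and the log2 fold change was -0.31 (95% confidence interval -0.89 to 0.28, adjusted p = 0.768 by limma). *DCP2*, the decapping enzyme, had 1151 and 1147 rescaled counts in WT and 801 and 1210 in *spt4Δ*. Its *spt4Δ* libraries lay on either side of WT.

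The deadenylase *CCR4* had 260 and 175 rescaled counts in WT and 153 and 218 in *spt4Δ*, with overlapping groups. *DIS3* had 641 and 537 in WT and 428 and 505 in *spt4Δ*, and *NAM7*, which encodes the NMD helicase Upf1, had 1740 and 1534 against 1408 and 1498. In both genes the groups did not overlap, yet the log2 fold changes of -0.33 and -0.17 were within the error (adjusted p = 0.689 and 0.863 by limma). *RAT1* had 856 and 698 rescaled counts in WT and 756 and 817 in *spt4Δ*, the overlapping values of a gene at the median (log2 fold change 0.02). *NRD1* had the lowest fold change of the members, with 83.1 and 92.1 rescaled counts in WT and 52.8 and 71.2 in *spt4Δ*. Its change of -0.51 had an interval of -1.12 to 0.11 (adjusted p = 0.598 by limma).

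*AIR1*, a zinc-knuckle RNA-binding subunit of TRAMP, had 503 and 472 rescaled counts in WT and 408 and 335 in *spt4Δ* (log2 fold change -0.40, interval -0.89 to 0.09). *MOT2* had 55.1 and 61.4 in WT and 33.2 and 71.9 in *spt4Δ*, with the mutant libraries on either side of WT. *LSM5* had 1758 and 1993 in WT and 2381 and 1436 in *spt4Δ*, likewise on either side. The members nearest to the median gene were *NOT3* of CCR4-NOT (log2 fold change 0.00, interval -0.54 to 0.54) and the exosome ring subunit *RRP46* (-0.01, interval -0.75 to 0.72).

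The count of calls depended on which *spt4Δ* library was kept. Without *spt4Δ* replicate 1, 3 members were called, *AIR1*, *CSL4* and *MTR4*, all lower, and without *spt4Δ* replicate 2, 14 of 49 were called, 4 higher and 10 lower. All genes were called at 9.41% and 30.2% in these fits, in which the lone *spt4Δ* library is assumed to vary as the WT libraries do. Without WT replicate 1 or WT replicate 2 no member was called.

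After Spt4 anchor-away, 1 decay factor fell. Of 4685 genes tested, 421 were called (8.99%), 222 higher (4.74%) and 199 lower (4.25%). Of 47 members, none was called higher and *AIR1* was called lower. *AIR1* (YIL079C, chromosome IX, 210923 to 212005) had 261 and 306 rescaled counts in the DMSO libraries and 164 and 164 in Spt4-AA. Both Spt4-AA libraries lay below both controls, 1.72-fold lower (log2 fold change -0.78, standard error 0.163, adjusted p = 0.0314 by limma). The call was lost without either DMSO library, at log2 fold changes of -0.90 and -0.67. The members' log2 fold changes ran from -0.78 to 1.18 with a median of -0.11, against 0.01 for all genes.

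The exosome and TRAMP lay mostly below the median gene, though *AIR1* alone among their genes was called. Of 11 exosome subunits, 10 were below 0 and none was called, with a median of -0.36. Of all 4685 genes tested, 2281 were below 0. *DIS3* had 433 and 407 rescaled counts in DMSO and 266 and 292 in Spt4-AA. These groups did not overlap, and its log2 fold change of -0.59 (standard error 0.152) had an adjusted p of 0.0558 by limma, just outside the threshold. It was called when genes had to average 100 normalized counts or more, and DESeq2 called *MTR4* (log2 fold change -0.63, adjusted p = 0.0538 by limma). TRAMP had a median of -0.57, with *AIR1* as the only one of its 4 genes called. The 3 NMD genes had log2 fold changes between -0.40 and -0.36, none called. *NAM7* had 990 and 1166 rescaled counts in DMSO and 823 and 831 in Spt4-AA (log2 fold change -0.38, adjusted p = 0.171 by limma).

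Factors acting at the 5′ end and in deadenylation lay on both sides of the median gene, and none was called. The 13 listed genes of 5′ decay had a median of 0.01, and the 8 of CCR4-NOT one of -0.03. They ran from -0.61 for *EDC3*, a decapping activator, to 1.18 for *EDC2*, and in CCR4-NOT *CAF130* was at -0.55, *POP2* at -0.50 and *CCR4* at -0.47. *XRN1* had 1053 and 1046 rescaled counts in DMSO and 1178 and 1200 in Spt4-AA (log2 fold change 0.18, interval -0.16 to 0.52). *DCP2* had 481 and 450 against 452 and 406, and *CCR4* had 160 and 132 against 133 and 81.7, both with overlapping groups. *RAT1* had 397 and 408 in DMSO and 347 and 406 in Spt4-AA, and *NRD1* had 67.8 and 82.0 against 101 and 63.8, again overlapping. *MOT2* was at 37.4 and 44.2 in DMSO and 36.3 and 38.9 in Spt4-AA. The members nearest to the median gene were *LSM7* (0.01, interval -0.47 to 0.49) and *PAN2*, the catalytic subunit of PAN (0.01, interval -0.35 to 0.37).

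How many members passed depended on the scaling and on single libraries. With the deposited values 17 of the 47 members fell and none rose, where 18.8% of all genes fell, and 880 genes fell and 142 rose in all. With each library scaled to the same total, 489 genes rose (10.4%) and 182 fell (3.88%), and of the members *EDC2* and *SKI8* rose and *AIR1* fell. The median of all genes was then 0.14 and that of the members 0.03, so the sign of the members' median depended on the scaling while its distance from all genes, -0.12, did not. Without Spt4-AA replicate 1 16 members were called, 3 higher and 13 lower, and without Spt4-AA replicate 2 15 were called, 1 higher and 14 lower. All genes were called at 35.2% and 31.0% in these fits, in which the lone Spt4-AA library is assumed to vary as the DMSO libraries do.

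The *spt4Δ* and Spt4-AA comparisons share no library. Their log2 fold changes had Spearman's rho = 0.28 and Pearson's r = 0.42 over the 47 members, and 0.63 and 0.64 over 4671 genes tested in both. These are descriptions over genes, which are not independent replicates. The sign was the same in both comparisons for 29 of the 47 members, a count not made over all genes.

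After Spt5 anchor-away the decay factors moved in both directions. Of 4673 genes tested, 2526 were called (54.1%), 1209 higher (25.9%) and 1317 lower (28.2%). Of 47 members, 6 rose and 19 fell, 12.8% and 40.4%. The members' median was -0.23, against 0.00 for all genes. edgeR called 7 higher and 20 lower, where it called 27.6% and 28.5% of all genes, and DESeq2 called 4 and 17, where it called 19.8% and 21.7%. All 25 members called by limma kept their direction when any single library was left out. That outcome was fixed, because in each of them both Spt5-AA libraries lay on one side of both DMSO libraries. Some calls were lost in these fits. Besides the losses given with each gene, the call on *LSM1* was lost without either DMSO library or Spt5-AA replicate 1, that on *SKI3* without either DMSO library, and those on *NMD2* and *RRP42* without the Spt4-FRB DMSO library. The adjusted p-values below are from limma.

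**Figure D2:**
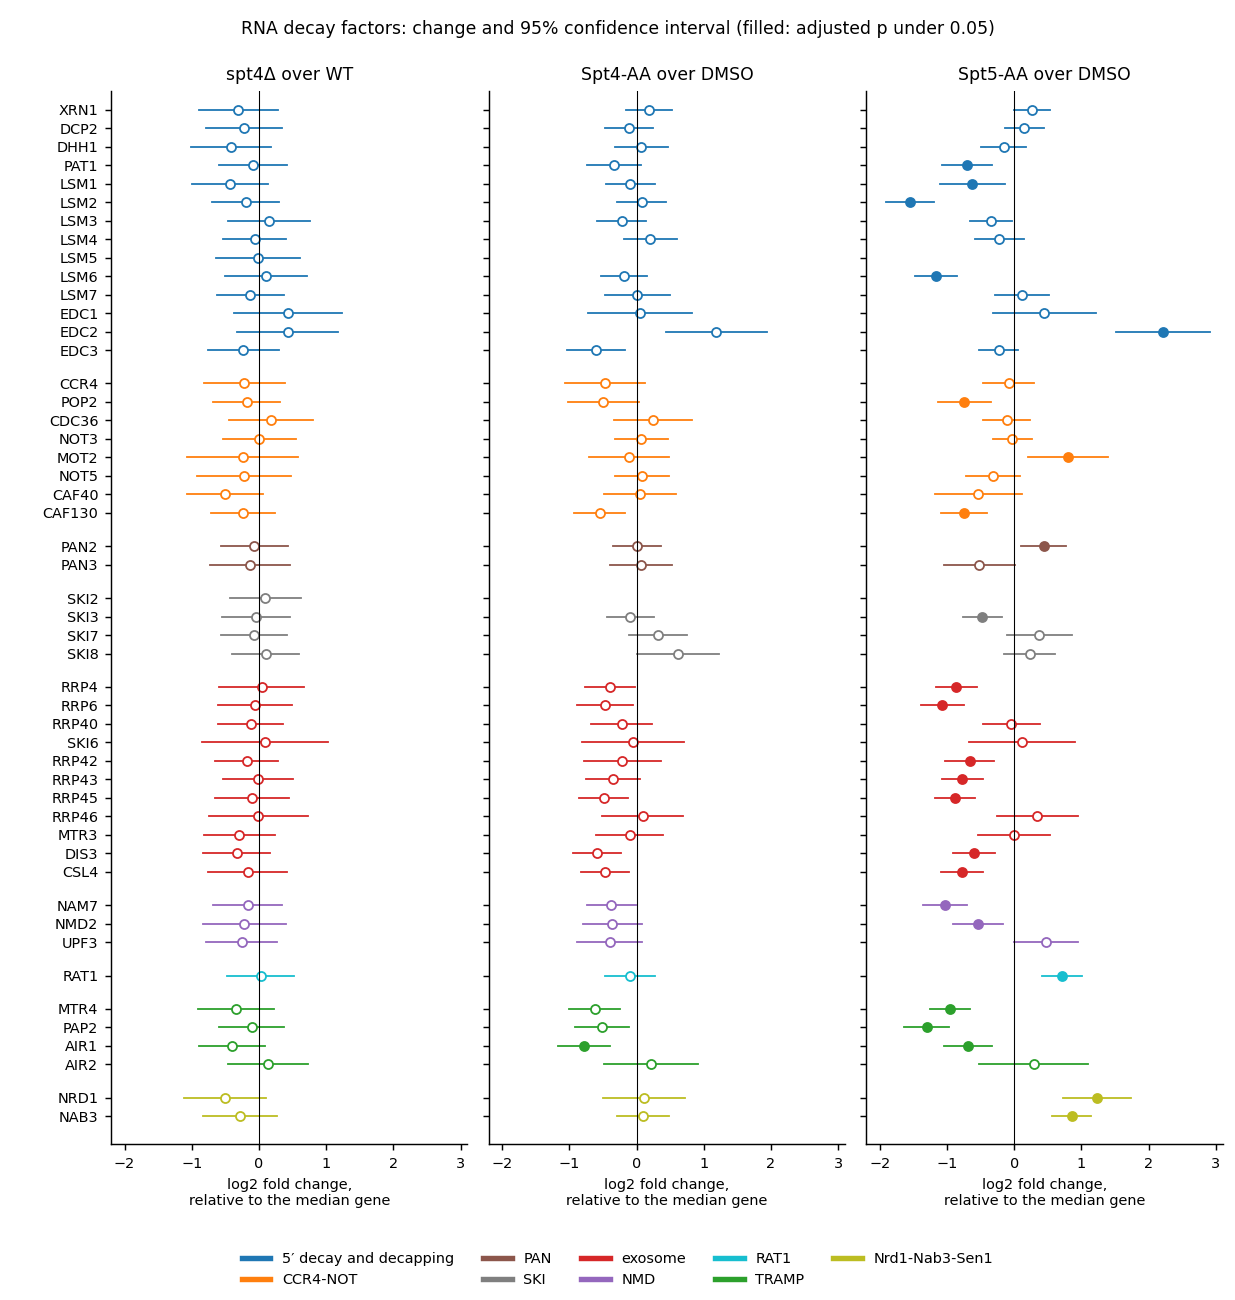
Log2 fold change of each member relative to the median gene, with its 95% confidence interval from limma, in 3 comparisons of 2 against 2 libraries. Filled points were called at an adjusted p under 0.05: none in *spt4Δ*, *AIR1* in Spt4-AA, and 25 members in Spt5-AA.

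Among the 13 listed genes of 5′ decay, 1 rose and 4 fell (7.69% and 30.8%), where 25.9% and 28.2% of all genes did. The rise was in *EDC2* (YER035W, chromosome V, 222639 to 223076), which encodes a protein that stimulates decapping. It had 9.66 and 13.8 rescaled counts in DMSO and 44.2 and 73.7 in Spt5-AA. Both Spt5-AA libraries were above both controls, 4.63-fold (log2 fold change 2.21, standard error 0.328, adjusted p = 4.34e-05). The same gene had 15.2 and 21.6 rescaled counts in DMSO and 39.2 and 45.9 in Spt4-AA in the other table, where it was not called (adjusted p = 0.0639).

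The falls were in genes of the LSM ring and in *PAT1*, at a share near that of all genes. *LSM2* (YBL026W, chromosome II, 170623 to 171038, 2 coding exons) had 195 and 223 rescaled counts in DMSO and 76.6 and 64.9 in Spt5-AA. It was 2.92-fold lower (log2 fold change -1.55, standard error 0.169, adjusted p = 1.93e-06), the largest fall among the members. *LSM6* had 539 and 580 in DMSO and 277 and 222 in Spt5-AA, 2.24-fold lower (adjusted p = 7.74e-06). *LSM1* and *PAT1* were the other falls, *LSM1* at -0.62 and *PAT1* at -0.70. The call on *LSM1* was lost with DESeq2 and with each library scaled to the same total. In all, 3 of the 6 listed *LSM* genes fell, and the 6 ranged from -1.55 to 0.11. The ring therefore did not move as a unit. Lsm2 and Lsm6 also belong to the nuclear LSM ring that binds U6 RNA.

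The enzymes that decap and digest from the 5′ end did not pass the test. *XRN1* had 669 and 668 rescaled counts in DMSO and 820 and 787 in Spt5-AA. The groups did not overlap and the log2 fold change was 0.26 (interval -0.01 to 0.54, adjusted p = 0.0947). *DCP2* had 305 and 287 in DMSO and 327 and 331 in Spt5-AA (log2 fold change 0.15, interval -0.14 to 0.44).

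In CCR4-NOT, 1 of 8 listed genes rose relative to the median gene, but fell with the deposited values, and 2 fell. These are 12.5% and 25%, where 25.9% and 28.2% of all genes rose and fell. *MOT2* had 23.8 and 28.3 rescaled counts in DMSO and 37.4 and 56.1 in Spt5-AA, 1.74-fold higher (adjusted p = 0.0233). DESeq2 did not call it, nor did limma without the Spt4-FRB DMSO library or without Spt5-AA replicate 2. *POP2*, the second deadenylase of the complex, fell by 0.74 on the log2 scale and *CAF130* by 0.75. *CCR4* had 102 and 84.1 in DMSO and 88.5 and 85.9 in Spt5-AA, with overlapping groups (log2 fold change -0.08, interval -0.47 to 0.30). *NOT3* was among the members nearest to the median gene, at -0.03 (interval -0.32 to 0.26). *PAN2* had 148 and 157 in DMSO and 187 and 228 in Spt5-AA, 1.35-fold higher relative to the median gene but lower with the deposited values (adjusted p = 0.0280). That call was lost with DESeq2 and when either DMSO library or Spt5-AA replicate 2 was left out. In the SKI complex 1 of 3 listed genes fell, the scaffold *SKI3* at -0.48, where 28.2% of all genes fell.

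The exosome fell in 7 of its 11 subunits (63.6%, against 28.2% of all genes) and rose in none, with a median of -0.66. *RRP6* (YOR001W, chromosome XV, 326832 to 329033), the nuclear exonuclease of the complex, had 232 and 232 rescaled counts in DMSO and 112 and 108 in Spt5-AA. It was 2.10-fold lower (log2 fold change -1.07, standard error 0.150, adjusted p = 2.46e-05). *DIS3* (YOL021C, chromosome XV, 282421 to 285426) had 275 and 260 in DMSO and 187 and 166 in Spt5-AA, 1.51-fold lower (adjusted p = 0.00271). Without the Spt4-FRB DMSO library the call on *DIS3* was lost, at a log2 fold change of -0.56. The other falls were in the cap subunits *RRP4* and *CSL4* and in the ring subunits *RRP42*, *RRP43* and *RRP45*, between -0.88 and -0.66.

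The 4 exosome subunits that were not called were those with the fewest counts. *RRP40*, *SKI6*, *RRP46* and *MTR3* had between 20.8 and 72.2 mean rescaled counts in DMSO, against 162 to 536 for the 7 that fell. Their log2 fold changes lay between -0.04 and 0.34, with standard errors of 0.201 to 0.371 against 0.141 to 0.172. *MTR3* was nearest of all members to the median gene, with 41.6 and 42.0 in DMSO and 51.1 and 34.1 in Spt5-AA and an interval of -0.54 to 0.54. Across the 47 members, control level and change had Spearman's rho = -0.56, and across all 4673 genes -0.47. The part of level in the contrast between these subunits was not tested.

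**Figure D3:**
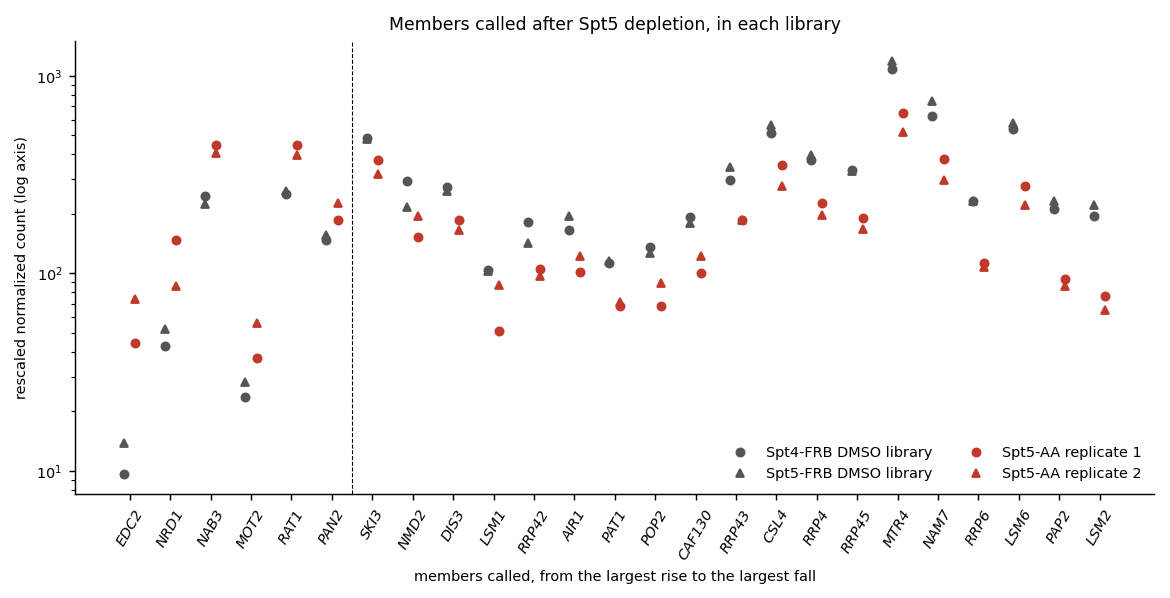
Rescaled normalized counts (log axis) of the 25 members called after Spt5 depletion, in each of the 2 DMSO libraries (grey) and 2 Spt5-AA libraries (red). For every gene shown both red points lie on one side of both grey points, with the 6 that rose left of the dashed line, 5 of which fell with the deposited values. The genes were chosen by their call in these same libraries, so this separation adds no support to the calls.

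TRAMP fell in 3 of 4 genes, where 28.2% of all genes fell. *PAP2* (YOL115W, chromosome XV, 101475 to 103229), the poly(A) polymerase also known as Trf4, had 212 and 233 rescaled counts in DMSO and 93.6 and 85.9 in Spt5-AA. It was 2.46-fold lower (log2 fold change -1.30, standard error 0.157, adjusted p = 5.64e-06). The helicase *MTR4* had 1079 and 1183 in DMSO and 650 and 521 in Spt5-AA, 1.94-fold lower. *AIR1* had 166 and 196 in DMSO and 102 and 122 in Spt5-AA, 1.61-fold lower (adjusted p = 0.00269), and it was the only member called in both anchor-away comparisons. Without the Spt5-FRB DMSO library this call on *AIR1* was lost, at a log2 fold change of -0.56. Its paralog *AIR2* had 15.3 to 29.7 rescaled counts in Spt5-AA against 15.6 to 19.3 in DMSO and was not called.

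*RAT1*, *NRD1* and *NAB3* rose relative to the median gene and fell with the deposited values. *RAT1* (YOR048C, chromosome XV, 418630 to 421650), the nuclear 5′ exonuclease, had 252 and 260 rescaled counts in DMSO and 446 and 396 in Spt5-AA. It was 1.64-fold higher relative to the median gene (adjusted p = 0.000447). *NRD1* (YNL251C, chromosome XIV, 172588 to 174315) had 43.1 and 52.4 in DMSO and 148 and 85.9 in Spt5-AA, 2.35-fold higher (log2 fold change 1.23, standard error 0.239, adjusted p = 0.000484). *NAB3*, which binds RNA beside Nrd1, had 247 and 225 in DMSO and 448 and 408 in Spt5-AA, 1.81-fold higher (adjusted p = 9.67e-05). Both listed genes of this complex rose, where 25.9% of all genes did. In all 3 genes the Spt5-AA libraries lay above the controls, which adds no support to the calls. *RAI1*, the partner of *RAT1* and outside the set, fell by 0.88 on the log2 scale (adjusted p = 0.000108).

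In NMD, 2 of 3 genes fell, where 28.2% of all genes did. *NAM7* (YMR080C, chromosome XIII, 426712 to 429627) had 629 and 745 rescaled counts in DMSO and 380 and 295 in Spt5-AA, 2.04-fold lower (log2 fold change -1.03, standard error 0.152, adjusted p = 4.16e-05). *NMD2*, which encodes the Upf2 partner of that helicase, fell by 0.54 on the log2 scale. The call on *NMD2* was lost with DESeq2 and with each library scaled to the same total. *UPF3* was at 0.47 with an interval from -0.00 to 0.94 and was not called (adjusted p = 0.0857).

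For 5 of the 6 members that rose, the direction depended on the scaling. With the deposited values, 46 of 47 members fell, where 90.7% of all genes fell, and *RAT1*, *NRD1*, *NAB3*, *MOT2* and *PAN2* changed sign. Their deposited log2 fold changes were -1.14, -0.61, -1.002, -1.01 and -1.42. *EDC2* stayed above 0, at 0.43, and was not called. All genes had a median of -1.84 on that scale, 4240 fell and 111 rose, and the members had a median of -2.09. With the same total in each library, 8 members rose and 17 fell, where 29.6% and 23.9% of all genes did. The 6 rises were all still called there. The source of the size factors behind the deposited scaling is not given in the sources used here. RNA per cell, the number of cells and library depth were not tested as its source. The Spt5-AA libraries had 798455 and 1138341 reads on listed genes, and their counts had been divided by size factors of 1.18 and 1.63. The DMSO libraries had 1866670 and 2082274 reads and size factors of 0.72 and 0.74. When genes had to average 100 normalized counts or more, 33 members were tested, their median was -0.60 and that of all genes -0.24.

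**Figure D4:**
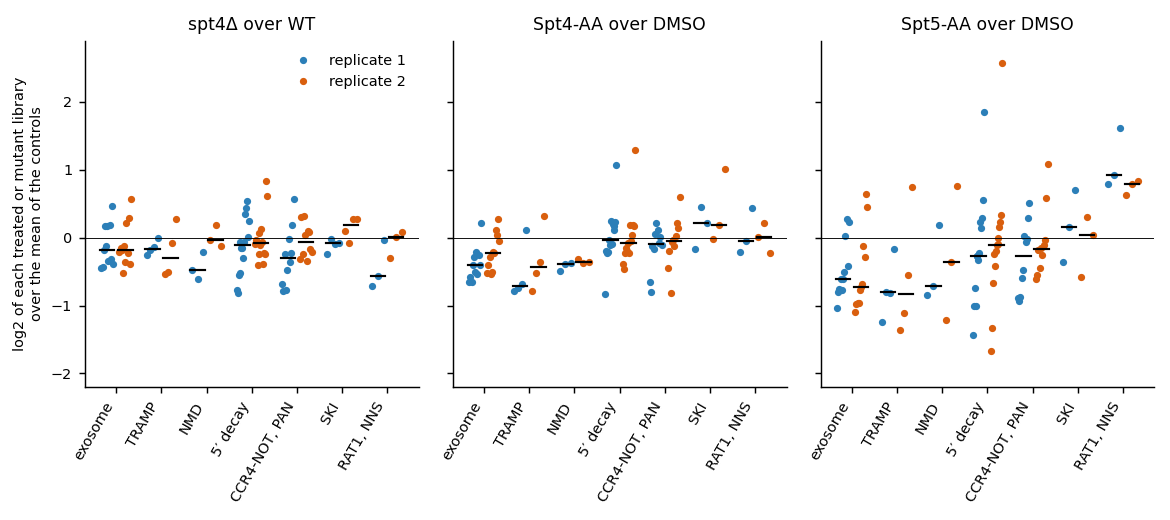
Log2 of each *spt4Δ*, Spt4-AA or Spt5-AA library over the mean of its 2 controls, after rescaling, for the members of each complex (points) with their median (bars). In Spt5-AA the exosome, TRAMP and NMD medians lie below 0 in both libraries and those of *RAT1* and Nrd1-Nab3-Sen1 above 0 (below 0 with the deposited values), while in *spt4Δ* the replicates differ.

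Members with PAC in the promoter window lay lower than those without. Their median log2 fold change was -0.43 over 10 members in Spt4-AA against -0.06 over the 37 without it, and -0.64 against -0.22 in Spt5-AA. Over all genes tested the same medians were -0.23 and 0.05 in Spt4-AA, and -0.25 and 0.03 in Spt5-AA. The share with PAC was 6 of the 19 members that fell in Spt5-AA (31.6%) and 21.2% of all genes that fell. Members with RRPE had a median of -0.28 in Spt4-AA against 0.01 without it, and -0.06 against -0.32 in Spt5-AA. Over all genes tested the medians with and without RRPE were -0.18 and 0.06 in Spt4-AA, and -0.25 and 0.05 in Spt5-AA. In Spt5-AA the members thus ran opposite to all genes. Among exosome genes the 4 subunits that were not called all held RRPE and only *MTR3* held PAC. Of the 7 that fell, *RRP42*, *CSL4*, *DIS3* and *RRP6* held RRPE too, and *RRP4*, *RRP43*, *CSL4* and *DIS3* held PAC. The 4 not called also had the fewest counts, and a link of motif to call was not tested.

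Genes of decay outside the set were read in the same way. Of 33 further genes listed for their function in decay, 29 were tested in *spt4Δ* and 28 in each anchor-away comparison. *DCS1*, the scavenger enzyme for released caps, was the one called in *spt4Δ*. It had 237 to 274 rescaled counts in WT and 580 to 597 in *spt4Δ* (log2 fold change 1.2025, adjusted p = 0.0266 by limma). It also rose in Spt4-AA, with 133 to 159 against 47.5 to 56.1 in DMSO (1.48, adjusted p = 0.00835), and in Spt5-AA, with 133 to 155 against 30.3 to 35.7 (2.09, adjusted p = 4.46e-07). In Spt4-AA *RNT1*, the RNase III of yeast, and *NOP53*, a ribosome biogenesis factor that binds Mtr4, were called lower, at -0.98 and -0.67. In Spt5-AA 11 of the 28 rose and 11 fell, 39.3% each, where 25.9% and 28.2% of all genes did. The exosome and TRAMP partners *MPP6* (1.81, adjusted p = 1.52e-07 by limma), *LRP1* (0.50) and *TRF5* (0.41) rose there, while *NOP53* fell (-0.65). *TIS11*, an RNA-binding protein that marks AU-rich messages for decay, had 8.92 to 11.0 in DMSO and 40.8 to 47.3 in Spt5-AA (2.04, adjusted p = 8.30e-05). On the deposited scale *DCS1* and *TIS11* in Spt5-AA were at 0.26 and 0.27, and neither was called. All other genes of this list that rose in Spt5-AA lay below 0 on that scale, between -1.44 and -0.04.

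Known targets of these pathways were read beside their factors. Of 16 listed targets, 14 were tested in each comparison. Among the 4 tested targets of Nrd1-Nab3-Sen1, 2 rose in *spt4Δ* (*IMD2* and *URA8*), 1 in Spt4-AA (*IMD2*) and 3 in Spt5-AA (*IMD2*, *URA8* and *HRP1*), the last 3 below 0 with the deposited values. All genes rose at 0.663%, 4.74% and 25.9% in these comparisons. *IMD2*, for an enzyme of GTP synthesis, had 254 to 265 rescaled counts in WT and 1467 to 1610 in *spt4Δ* (log2 fold change 2.56, adjusted p = 0.000214 by limma), and it was at 1.30 in Spt4-AA. In Spt5-AA it was at 1.74 relative to the median gene but at -0.11 with the deposited values. Other *IMD* genes are near-identical, so this value is uncertain. *URA8*, for CTP synthase, rose in *spt4Δ* too, with 870 to 1186 against 387 to 404. *COX17*, the target of the RNA-binding protein Puf3, had 49.1 to 72.3 in DMSO and 135 to 161 in Spt4-AA. It rose in both anchor-away comparisons, at 1.29 and 1.96 (adjusted p = 0.0220 and 1.60e-06 by limma), but was at 0.12 and not called in Spt5-AA with the deposited values. *RPS28B*, a ribosomal protein message decapped through Edc3, had 6376 to 7160 rescaled counts in DMSO and 3121 to 3134 in Spt4-AA (-1.11), and it fell by 3.34 on the log2 scale in Spt5-AA. Its near-identical copy *RPS28A* makes that value uncertain. *YRA1*, the other listed Edc3 target, rose in Spt5-AA by 0.46 relative to the median gene (adjusted p = 0.0137 by limma) and was at -1.40 with the deposited values. Of 7 tested NMD targets, none was called in *spt4Δ* or Spt4-AA, while in Spt5-AA *CPA1* rose relative to the median gene (0.64, but -1.19 with the deposited values) and *ALR1* fell (-0.49).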

How the data were processed

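The authors deposited, for each comparison, a table of normalized counts per gene, a signal in which the counts of a library are divided by 1 size factor. The labels' processing notes name Trim Galore, TopHat and DESeq2 and the builds sacCer3, R64 and ASM294v2. The counter, the annotation and the source of the size factors are not given in the sources used here. Whole reads were recovered from the steps of the values (100% whole within 0.001). Counting error and the limit of 3 reads at a value of 0 cover the reads only. The authors' own tables of DESeq2 fold changes and p-values were not used. The ChIP-seq, MNase-seq, NET-seq and TEF-seq libraries are not analysed here.

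Each library was divided by its median ratio to the geometric mean of its table and log2(value + 1) was fitted with limma (version 3.58.1, R 4.3.3), with a trend in the mean, two-sided, no term for replicate, over genes that averaged 10 or more normalized counts, with Benjamini-Hochberg adjustment. Each comparison was fitted in its own table. Alternatives were the deposited scaling, the same total, other pseudocounts (0.1 and 10), other minimum averages (none and 100), edgeR (version 4.0.16) and DESeq2 (version 1.42.0) on the recovered reads, a replicate block, and each library left out. The fit was also run on simulated counts with the same spread for every gene, scaled by library total. That run does not cover the rescaling used here or replicates that disagree. Positions, coding lengths and promoter windows came from R64. Python 3.11.15 was used elsewhere.

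The members, lists and rules were chosen with earlier results of these data known. Genes named are 1 core factor per pathway, the 5 largest rises and falls among called members, members called more than once, those nearest the median gene, the highest and lowest in WT, and up to 4 called related factors or targets per comparison. *MTR4*, *PAT1*, *LSM1*, *POP2*, *CAF130*, *SKI3*, *NMD2*, *UPF3*, *AIR2*, *RNT1*, *NOP53*, *MPP6*, *LRP1*, *TRF5*, *HRP1*, *EDC3*, *RAI1*, *YRA1*, *CPA1*, *ALR1*, the other exosome subunits and the neighbours in the order of levels were singled out after their values were seen.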

Additional observations from a re-analysis of the deposited data

How the results depend on the processing

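Values are log2 fold changes unless called counts. With the deposited scaling the count of all genes called was 13 in *spt4Δ*, 1022 in Spt4-AA and 4351 in Spt5-AA, that of members 17 in Spt4-AA and 46 in Spt5-AA, and the members' median 0.71, -0.39 and -2.09. Under it 37 of 49 members changed sign in *spt4Δ*, 16 of 47 in Spt4-AA and 15 of 47 in Spt5-AA, among them in *spt4Δ* *XRN1* 0.54, *DCP2* 0.62, *CCR4* 0.62, *DIS3* 0.51, *NAM7* 0.67, *NRD1* 0.33, *RRP46* 0.81, *AIR1* 0.44, *MOT2* 0.58 and *LSM5* 0.82; in Spt4-AA *XRN1* -0.11, *NRD1* -0.19, *LSM7* -0.28 and *PAN2* -0.28; in Spt5-AA *XRN1* -1.59, *DCP2* -1.70, *RAT1* -1.14, *NRD1* -0.61, *NAB3* -1.002, *MOT2* -1.01, *PAN2* -1.42, *UPF3* -1.37 and *AIR2* -1.48. With the same total, 14 genes were called in *spt4Δ* (12 higher, 2 lower), 671 in Spt4-AA and 3 members there, with members' medians of 0.026 in Spt4-AA and -0.12 in Spt5-AA, and the sign changed for *RRP46* 0.014 and *LSM5* 0.0094 in *spt4Δ*, *DCP2* 0.014, *RAT1* 0.034 and *MOT2* 0.018 in Spt4-AA, and *CCR4* 0.026, *MTR3* 0.11 and *NOT3* 0.081 in Spt5-AA. The deposited scaling gave 12 higher and 1 lower in *spt4Δ*. A mean of at least 100 gave 2 members called in Spt4-AA and medians of -0.22 and -0.60 in the anchor-away comparisons. DESeq2 called 108 genes in *spt4Δ* and 2 members in Spt4-AA. *LSM5* in *spt4Δ* was at 0.019 with edgeR and 0.020 with DESeq2, and *MTR3* in Spt5-AA at 0.021 with DESeq2 and 0.0023 with a pseudocount of 10. The cause of these differences was not tested.

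With a replicate block 91 genes and 0 members were called in *spt4Δ*, and the members' median stayed at -0.13. With only 2 pairs, whose deviations had r = -0.26, the numbers do not pair the samples. The crossed block, chosen after seeing the data, gave 266 genes and 0 members. No paired analysis was possible for the anchor-away comparisons because the DMSO libraries are of different strains.

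Leaving out each library gave 16 to 1596 genes called in *spt4Δ* (16 without WT replicate 1, 1596 without *spt4Δ* replicate 2), 89 to 1650 in Spt4-AA (89 without the Spt5-FRB DMSO library, 1650 without Spt4-AA replicate 1), and 0 to 14 and 0 to 16 members. The members' median in Spt4-AA ranged from -0.17 to -0.085. Ranges that cross 0 were, in *spt4Δ*, *DCP2* -0.52 to 0.075, *CCR4* -0.51 to 0.068, *RAT1* -0.12 to 0.17, *NOT3* -0.17 to 0.18, *RRP46* -0.32 to 0.29, *MOT2* -0.79 to 0.30 and *LSM5* -0.38 to 0.35. In Spt4-AA they were *NRD1* -0.22 to 0.43, *PAN2* -0.030 to 0.051, *MOT2* -0.23 to 0.0050, *RAT1* -0.21 to 0.015 and *LSM7* -0.22 to 0.24. In Spt5-AA they were *CCR4* -0.22 to 0.051, *MTR3* -0.29 to 0.28 and *NOT3* -0.13 to 0.072. None of these members with ranges across 0 was called in its comparison. With 2 libraries a group and as few as 9 reads for a member in an Spt5-AA library, small changes of low genes could not be detected.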
